A study of Mus musculus with 4 samples.

Results

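The 10 genes described here make, break down and sense prostaglandins: the cyclooxygenases Ptgs1 and Ptgs2, the synthases Ptges, Ptgis and Ptgds, the degrading enzyme Hpgd, and the receptors Ptger2, Ptger3, Ptger4 and Ptgfr. They were picked by gene name among the non-control probes of a mouse expression array, which gave 16 of 41174 probes and 10 of 27597 gene names. RNA came from CD45-negative lymph node cells, which the series title calls stromal cells and the design text calls stem cells. Both groups were from wild-type C57BL/6NCrl mice: the mesenteric lymph node (mLN, 2 arrays), which drains the gut, and peripheral lymph nodes (pLN, 2 arrays). In each of 2 experiments an mLN and a pLN sample were digested with collagenase, cleared of CD45-positive cells with magnetic beads and hybridised to 1 single-dye Agilent array each. The labels give no age or sex, and do not say which peripheral nodes were taken, how many animals were pooled or whether the experiments used separate animals, so the p-values measure only the spread between these samples.

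Prostaglandins are short-lived lipid signals. Phospholipases release arachidonic acid from membranes, a cyclooxygenase turns it into prostaglandin H2, and a terminal synthase makes from that a single product such as prostaglandin E2, D2 or prostacyclin. The products act on nearby cells through receptors coupled to G proteins, and their action ends when they are taken up and oxidised, the first step of which is carried out by the Hpgd enzyme. In lymph nodes, stromal cells are a known source of cyclooxygenase products.

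Signals are given as scaled signals: each array's 75th percentile over all probes was set to 1000. A value holds only for its own probe, so it does not rank the levels of different genes. Where the signals of a marker list are summed, the sum follows the brightest probes of the list. Such sums serve only to set the arrays side by side and do not measure an amount of cells. The percentile lay between 1686 and 1741 before scaling, 74.0% to 81.1% of probes were well above background, and 2 arrays per node limit the precision of every value. CD45 itself (Ptprc) had 343 and 374 in mLN against 402 and 294 in pLN (experiments 1 and 2, in that order throughout). All 9 listed markers of fibroblastic reticular cells, the main stromal cell of a node, were tested with none called, against 1.05% of all genes. In both experiments 3 of the 9 were higher in mLN and 2 lower. The largest log2 fold changes were those of Pi16 (1.47 ± 0.75, SE, limma adjusted p = 0.484) and Dpt (0.98 ± 0.18, adjusted p = 0.126). In whole samples like these, fewer cells of a type and less RNA per cell cannot be told apart.

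Of the 16 probes, 14 were bright enough to be used, meaning that both mLN arrays or both pLN arrays read them well above background, and each of the 10 genes kept at least 1 of these. The Ptgis probe is shown whole, since it is the only measurement of the gene with the largest difference, and the first 30 of 60 bases are shown for the other probes on which the results turn. Positions are those of the deposited files, on mm8, and their place in exons or untranslated regions was not assigned here.
Ptgis probe, chr2:166898010-166898069, minus strand: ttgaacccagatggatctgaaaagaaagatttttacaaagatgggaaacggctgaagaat
Hpgd probe 1, chr8:59212385-59212444, plus strand, first 30 bases: ctcagactgcatctttactagtgtagcttt
Hpgd probe 2, chr8:59212744-59212803, plus strand, first 30 bases: aagctcctttacaatggaaatatttagtaa
Ptges probe, chr2:30714327-30714386, minus strand, first 30 bases: gccacttacagatgagctgtcaagatttga
Ptger3 probe 1, chr3:157579837-157579896, plus strand, first 30 bases: ctaaatgttcagctagagctgttaaaagga
Ptgs2 probe 1, chr1:151869832-151869891, plus strand, first 30 bases: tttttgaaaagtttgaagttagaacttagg
Ptgs2 probe 2, chr1:151869504-151869563, plus strand, first 30 bases: ctgaagaattgctttcttacttaaaaacaa
Ptgs1, Ptges, Ptgis and Ptgds, 4 of the 10 genes, lie on chromosome 2.

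The mLN and pLN were compared to ask which of these genes differ between the stroma of the gut-draining node and that of other nodes. Ptgis and Hpgd were called higher in mLN and no member was called lower, at an adjusted p under 0.05 (limma, Benjamini-Hochberg over all genes tested). Over all 21392 genes tested, 225 were called (1.05%), 166 of them higher in mLN (0.776%) and 59 lower (0.276%). The members' median log2 fold change was 0.52, against -0.03 over all genes, and 5 members (Ptgs1, Ptges, Ptgis, Hpgd and Ptger3) had an unadjusted p under 0.05, all of them higher in mLN, against 3140 of all genes (14.7%). In the same 5 and in Ptger2, 6 members in all, the values of the nodes did not overlap, against 45.6% of all genes. At least a 2-fold difference in the same direction in both experiments was seen for 4 members (Ptgis, Hpgd, Ptger3 and Ptges), against 4.45% of all genes. The Hpgd call was lost without any of the 4 arrays and the Ptgis call without either pLN array. Without mLN array 1 or mLN array 2, Ptgis was the only member called (limma adjusted p = 0.0374 and 0.0283), and without pLN array 1 or pLN array 2 no gene at all was (limma, with 1877 and 2297 genes at an unadjusted p under 0.05).

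**Figure D1:**
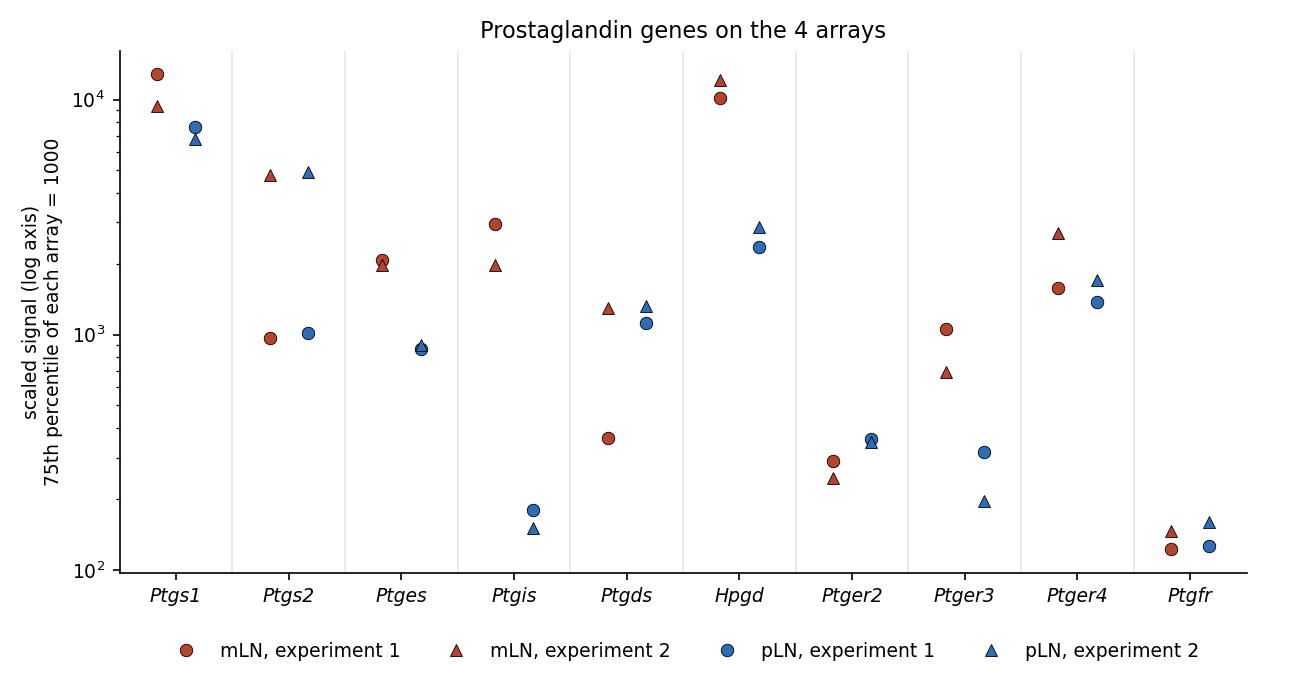
Scaled signal (log axis, 75th percentile of each array set to 1000) of the 10 prostaglandin genes, 1 point per array, with mLN in red left of pLN in blue, circles for experiment 1 and triangles for experiment 2. Ptgis, Hpgd, Ptges and Ptger3 lie higher on both mLN arrays, while the Ptgs2 points separate by experiment.

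The cyclooxygenases carry out the committed step. Ptgs1, the constitutive form (chr2:36074133-36074192, mm8), had 12777 and 9371 in mLN against 7639.9 and 6769.7 in pLN. Both mLN arrays lay above both pLN arrays, and the log2 fold change was 0.61 ± 0.21 (SE, n = 2 per node), with a limma adjusted p of 0.308 and a range of 0.38 to 0.83 with 1 array left out.

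Ptgs2, the inducible cyclooxygenase, had 968 and 4780.0 in mLN against 1012 and 4894 in pLN. Within each experiment the nodes were almost level (mLN over pLN 0.957-fold and 0.977-fold), and the array of experiment 2 was the higher one in both nodes. The log2 fold change was -0.05 ± 1.10 (SE, n = 2 per node, limma adjusted p = 0.992, 95% interval -3.02 to 2.92). Blocking on the experiment gave -0.05 ± 0.14 (limma adjusted p = 0.917). The second Ptgs2 probe showed the same order, with 632 and 3328 in mLN against 768 and 3823.5 in pLN.

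The terminal synthases decide which prostaglandin is made. Ptgis, prostacyclin synthase, had 2950.3 and 1987 in mLN against 179.6 and 150.02 in pLN. Both mLN arrays lay far above both pLN arrays, 16.4-fold in experiment 1 and 13.2-fold in experiment 2. In log2 the difference was 3.88 ± 0.25 (SE over 2 arrays per node, limma adjusted p = 0.0159), which is 14.7-fold with a 95% interval of 9.25-fold to 23.5-fold, and its absolute size exceeded that of 99.4% of all genes tested. The adjusted p was 0.117 without pLN array 1 and 0.143 without pLN array 2, 0.0545 without the filter on dim probes and 0.689 with normexp background correction, and the log2 fold change stayed between 3.41 and 4.17 in all 14 alternative settings.

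Ptges, the inducible prostaglandin E synthase that works beside Ptgs2, had 2073 and 1975 in mLN against 869 and 899.7 in pLN. The nodes did not overlap, and mLN was 2.39-fold and 2.20-fold higher in experiments 1 and 2. The log2 fold change was 1.19 ± 0.14 (SE, n = 2 per node) with a limma adjusted p of 0.0525, outside the threshold. It fell inside the threshold with array medians as the scale (0.0435), with probes above background on all 4 arrays (0.0449), with the deposited value table (0.0454) and when the prior variance followed the intensity (0.0192), and not in the other 10 settings.

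Ptgds, the lipocalin-type prostaglandin D synthase, also known as a carrier of lipids, was read by 1 probe at chr2:25289331-25289862 (mm8) whose 60 bases span 532 bases of genome. It had 365 and 1301 in mLN against 1122 and 1324.5 in pLN. The mLN array of experiment 1 stood apart from the other 3, and the log2 difference between the nodes was -1.62 in experiment 1 and -0.03 in experiment 2. The fitted log2 fold change, -0.82 ± 0.64 (SE over 2 arrays per node, limma adjusted p = 0.659), rests on that array, as it was 0.094 without it. Of 9 blood endothelial markers, 4 were lowest on that array, 3 on the other mLN array and 2 on pLN array 2, with sums of 201696 and 328394 in mLN and 333499 and 361221 in pLN. Of 7 mast cell markers, 4 were lowest on that array, 2 on the other mLN array and 1 on pLN array 2, with sums of 1127 and 2322 in mLN and 1973 and 2221 in pLN. Most of the blood endothelial sums came from Glycam1 (115598 and 240205 in mLN, 226219 and 262704 in pLN). Kit (846 and 2036 in mLN, 1505 and 1870 in pLN) made up most of the mast cell sums. Cpa3, Fcer1a and Ms4a2 were higher on mLN array 1 than on mLN array 2. Neither list had a called gene. Only these lists were counted by their lowest array, and the share of all genes lowest on each array was not counted. The part of these cell types in the Ptgds values was not tested.

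Hpgd encodes 15-hydroxyprostaglandin dehydrogenase, which inactivates prostaglandins. It had 10129 and 12076 in mLN against 2359 and 2856 in pLN. Every mLN value lay above every pLN value, and the ratios of the experiments were nearly equal at 4.29-fold and 4.23-fold. The log2 fold change was 2.09 ± 0.18 (SE, n = 2 per node, limma adjusted p = 0.0300), or 4.26-fold with a 95% interval of 3.03-fold to 6.00-fold. Its adjusted p lay above the threshold with any array left out (0.0624 to 0.179), without the filter on dim probes (0.0919) and with normexp background correction (0.689), while the log2 fold change stayed between 1.72 and 2.23.

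The second Hpgd probe gave 7041 and 8980 in mLN against 1622 and 1987 in pLN, a log2 fold change of 2.15 ± 0.21. When every probe was fitted as its own feature, which called 234 of 31883 probes (0.734%), both Hpgd probes were called (limma adjusted p = 0.0377 and 0.0452). A further probe, whose file annotation describes a cDNA of Hpgd but whose gene name is AK051168 and so did not enter the 10 genes, had 40.7 and 16.2 in mLN. Neither of its pLN readings was well above background, and it was at least 2.95-fold higher in mLN (limma adjusted p = 0.161 over all probes, outside the threshold). Both probes named Hpgd thus lay higher in mLN. The AK051168 probe entered through its mLN readings alone, so its direction was set by the filter and adds no support.

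**Figure D2:**
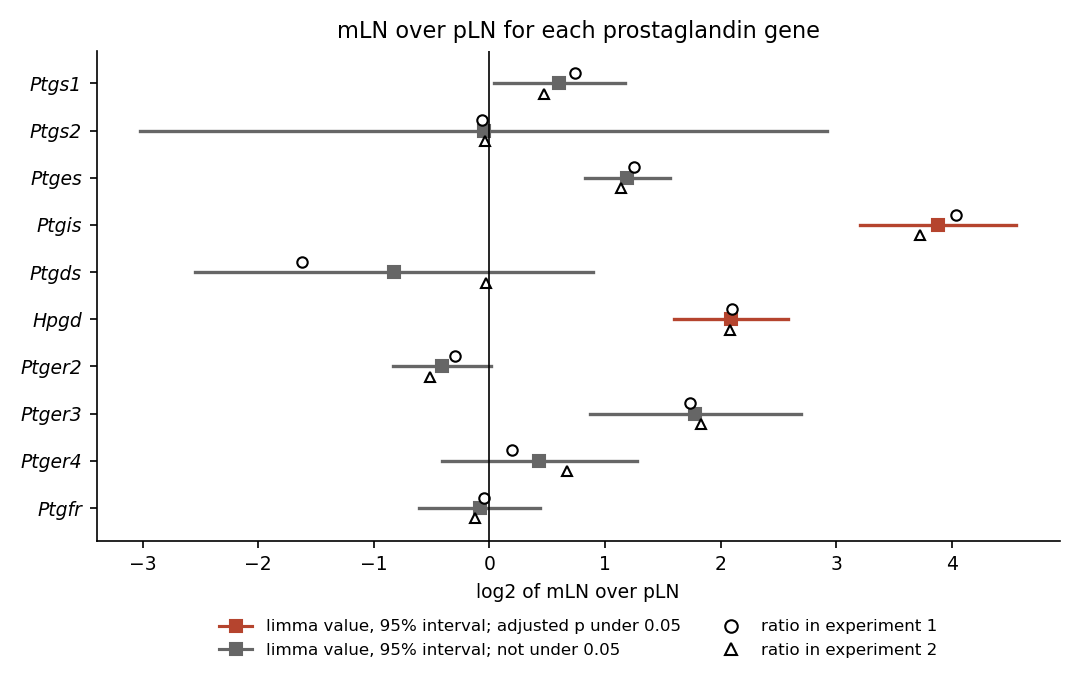
log2 of mLN over pLN for each gene, with the limma value and its 95% interval (squares and bars, red where the adjusted p is under 0.05) and the ratio within experiment 1 (circles) and experiment 2 (triangles). Ptgis at 3.88 and Hpgd at 2.09 are the 2 called genes, and the Ptgs2 interval runs from -3.02 to 2.92 although its ratios in both experiments lie near 0.

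Of the receptors, Ptger2 and Ptger4 raise cyclic AMP on binding prostaglandin E2, Ptger3 mainly lowers it, and Ptgfr binds prostaglandin F2 alpha. Ptger3 had 1057 and 697 in mLN against 318 and 196 in pLN on its brightest probe. The nodes did not overlap, and mLN was 3.32-fold and 3.55-fold higher in experiments 1 and 2. The log2 fold change was 1.78 ± 0.34 (SE, n = 2 per node, limma adjusted p = 0.129). Blocking on the experiment brought the limma adjusted p to 0.0356, inside the threshold. Another Ptger3 probe had 412 and 313 in mLN against 157 and 84.8 in pLN (1.64 ± 0.36 in log2). A further Ptger3 probe (probe 3) and probe 2 of Ptger4 were left out, since each exceeded the background on a single mLN array and on no pLN array.

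The other receptors differed less. Ptger2 (chr14:43924206-43924265, mm8) had 291 and 245 in mLN against 358 and 349 in pLN, the only receptor with both mLN values below both pLN values (log2 fold change -0.41 ± 0.16, limma adjusted p = 0.360). Its sign turned under normexp background correction, to 0.19. Ptger4 (chr15:5181634-5181693, mm8) had 1578 and 2717 in mLN against 1378 and 1708 in pLN, with overlap between the nodes (0.43 ± 0.31, adjusted p = 0.636). Ptgfr (chr3:151738745-151738804, mm8) had 123 and 146 in mLN against 126 and 159 in pLN, again overlapping (-0.08 ± 0.19, adjusted p = 0.911), and its second probe had 25.9 and 45.2 in mLN against 36.2 and 45.3 in pLN. The 95% intervals of Ptger4 (-0.41 to 1.28) and Ptgfr (-0.60 to 0.44) leave room for differences in either direction.

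**Figure D3:**
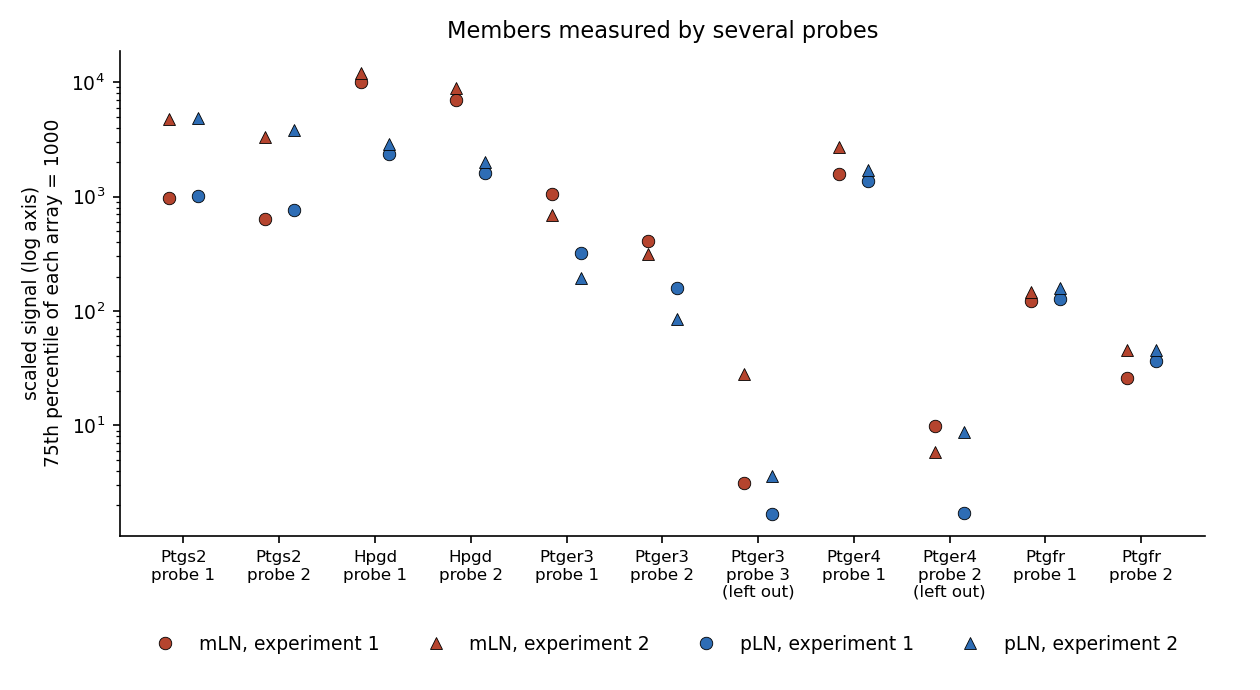
Scaled signal (log axis) of each probe of the 5 genes read by several probes, mLN in red left of pLN in blue, circles for experiment 1 and triangles for experiment 2. Both Hpgd probes and both used Ptger3 probes lie higher in mLN, both Ptgs2 probes split by experiment, and the 2 probes marked as left out lie near background.

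Experiment 2 over experiment 1 was then read within each node for the same genes, where Ptgs2 stood out. There is 1 array per node and experiment, so these ratios carry no test. Ptgs2 was 4.94-fold higher in experiment 2 within mLN and 4.84-fold higher within pLN. Ranked by the smaller of the 2 rises, it was first among the 21392 genes. A change of at least 2-fold in the same direction in both nodes occurred in 176 genes (0.823%), 46 of them higher in experiment 2, and Ptgs2 was the only member among them. Ptgds was 3.57-fold higher in experiment 2 within mLN and 1.18-fold within pLN, and the other 8 members moved by less than 2-fold in both nodes.

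A list of 10 genes known to be induced beside Ptgs2 by stress, tissue digestion or inflammatory signals was read in the same way. All 10 were higher in experiment 2 in both nodes, a share that was not counted over all genes. Their median log2 rise was 1.40 within mLN and 0.77 within pLN, against -0.01 and 0.01 over all genes. Of the 10, 4 rose at least 2-fold in both nodes (named after their values were seen), as did 46 of all 21392 genes. The list was chosen with earlier results of these data known. Il6, a cytokine, was 4.74-fold higher within mLN and 5.49-fold within pLN, and ranked 2 of 21392. Fosb, an AP-1 subunit, was 4.96-fold and 2.99-fold higher, Atf3, a stress-induced transcription factor, 4.00-fold and 3.05-fold, and the chemokine Cxcl1 4.83-fold and 2.43-fold. Between the nodes none of the 10 was called (0 at an unadjusted p under 0.05, limma), nor with the experiment as a block (1 at an unadjusted p under 0.05, against 17.6% of all genes in that fit), 5 of the 10 were lower in mLN in both experiments, and their median log2 fold change of mLN over pLN was -0.23. The largest of these differences were those of Il6 (-0.85 ± 1.14, limma adjusted p = 0.817), Cxcl1 (-0.51 ± 0.89, 0.871) and Egr1 (-0.30 ± 0.56, 0.883). Blocked on the experiment, the limma values were -0.85 ± 0.15 for Il6 (adjusted p = 0.115), -0.51 ± 0.30 for Cxcl1 (0.498) and -0.30 ± 0.22 for Egr1 (0.600).

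**Figure D4:**
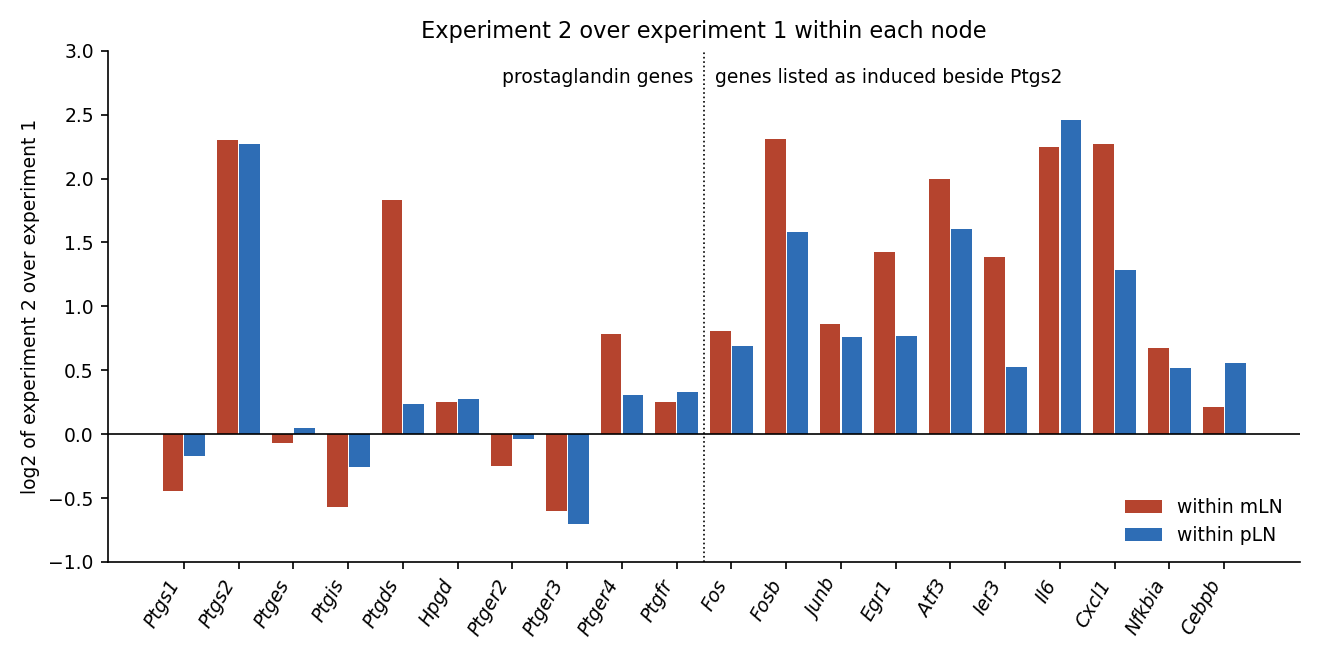
log2 of experiment 2 over experiment 1 within mLN (red) and within pLN (blue, right of it), 1 array each, for the prostaglandin genes and for 10 genes listed as induced beside Ptgs2. Ptgs2 rises by 2.30 within mLN and 2.27 within pLN, and all 10 listed genes are above 0 in both nodes.

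The RefSeq promoters of Ptgs2 and Hpgd are shown because Ptgs2 differed between the experiments and Hpgd between the nodes. Of the 10 genes, 9 had a promoter in the table (GRCm38.p6, 250 bases before to 50 after the start). In Ptgs2 the capitals mark a GC box (GGGCGG), TTGCGCAA and TTGGGGAA (both matches to the C/EBP pattern TTNCNNAA, the second on the other strand) and CGTCACGTG, in which a CRE half-site (TGACG, on the other strand) overlaps an E-box (CACGTG). In Hpgd they mark a C/EBP pattern and a GC box (both on the other strand) and a TATA box pattern (TATAAA). The TATA box pattern of Hpgd begins 4 bases after the annotated start. The CRE half-site and E-box of Ptgs2 begin 13 and 16 bases after its annotated start. These positions hold for the annotated starts only, and whether transcription begins there was not tested.
Ptgs2 promoter, chr1:150099781-150100080, plus strand: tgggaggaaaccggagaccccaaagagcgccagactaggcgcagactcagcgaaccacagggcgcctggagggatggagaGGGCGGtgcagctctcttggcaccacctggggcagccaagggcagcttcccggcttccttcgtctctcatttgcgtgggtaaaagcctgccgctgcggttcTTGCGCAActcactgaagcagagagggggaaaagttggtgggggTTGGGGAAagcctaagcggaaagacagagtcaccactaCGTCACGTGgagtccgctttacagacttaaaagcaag
Hpgd promoter, chr8:56294302-56294601, plus strand: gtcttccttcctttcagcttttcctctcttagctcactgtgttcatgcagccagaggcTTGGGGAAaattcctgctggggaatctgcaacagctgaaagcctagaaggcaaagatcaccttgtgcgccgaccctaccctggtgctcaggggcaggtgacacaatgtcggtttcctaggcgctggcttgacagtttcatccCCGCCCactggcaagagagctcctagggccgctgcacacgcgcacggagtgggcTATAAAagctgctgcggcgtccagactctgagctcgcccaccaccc
Both strands were searched in all 27025 promoters of the table. Of these, 7.2% hold the E-box, 21.0% the CRE half-site, 40.7% the C/EBP pattern, 35.9% the GC box and 14.2% the TATA box. An AP-1 pattern (TGANTCA, in 7.9% of promoters) and a nuclear receptor half-site (AGGTCA, 16.0%) had no match in either window. Among the 9 promoters Ptgs2 alone held the E-box and the CRE half-site, and Hpgd alone the TATA box. These matches describe the letters and are not evidence of binding.

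The rest of the pathway was read from lists of 49 other eicosanoid genes, of which 48 were on the array and 43 tested. None was called (limma), 8 were higher and 2 lower at an unadjusted p under 0.05 (10 of 43, against 14.7% of all genes), and the median log2 fold change was -0.01. Of the 17 genes tested for release of arachidonic acid and synthesis (median -0.04), Akr1c18, an aldo-keto reductase that also acts on progesterone, had 1947 and 905 in mLN against 630.4 and 290.4 in pLN (1.63 ± 0.55, limma adjusted p = 0.297, and 0.0416 when blocked on the experiment, the only call the block added among the 43). Pla2g4a, the cytosolic phospholipase A2 that feeds both cyclooxygenases, had 4040.1 and 4852 in mLN against 2070.5 and 2475 in pLN (0.97 ± 0.18, adjusted p = 0.127). Pla2g5, a secreted phospholipase, had 608 and 1403 in mLN against 1560 and 2061 in pLN (-0.96 ± 0.45, adjusted p = 0.450), with mLN array 1 the lowest as for Ptgds. Hpgds, the other prostaglandin D synthase, was not well above background on any array.

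Among the 8 genes of breakdown and transport (median 0.20), Ptgr1, which acts on the product of the Hpgd enzyme, had 6145 and 6403 in mLN against 3677 and 4167 in pLN (0.68 ± 0.15, limma adjusted p = 0.151). The transporter gene Slco4a1 (0.57 ± 0.23, adjusted p = 0.376) and the carbonyl reductase gene Cbr3 (0.48 ± 0.21, 0.424) followed. The prostaglandin transporter Slco2a1, which takes prostaglandins into the cell, was at -0.12 ± 0.16 (adjusted p = 0.803). Of the 4 other receptor and receptor-associated genes tested (median 0.21), Ptgfrn, which encodes a protein that binds the Ptgfr receptor and reduces its signalling, was at 0.57 ± 0.20 (0.318), the prostacyclin receptor Ptgir at 0.48 ± 0.43 (0.712) and the thromboxane receptor Tbxa2r at -0.20 ± 0.26 (0.803), and the D receptor Ptgdr was not well above background on any array. In the leukotriene and lipoxin branch (14 tested, median -0.06), Fpr2, a formyl peptide and lipoxin receptor, had 8.55 and 15.4 in mLN against 66.4 and 38.7 in pLN (-2.14 ± 0.41, limma adjusted p = 0.132). Alox5ap, which presents arachidonic acid to 5-lipoxygenase, was at -0.64 ± 0.26 (0.383) and the leukotriene receptor Cysltr2 at 0.64 ± 0.17 (0.205).

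**Figure D5:**
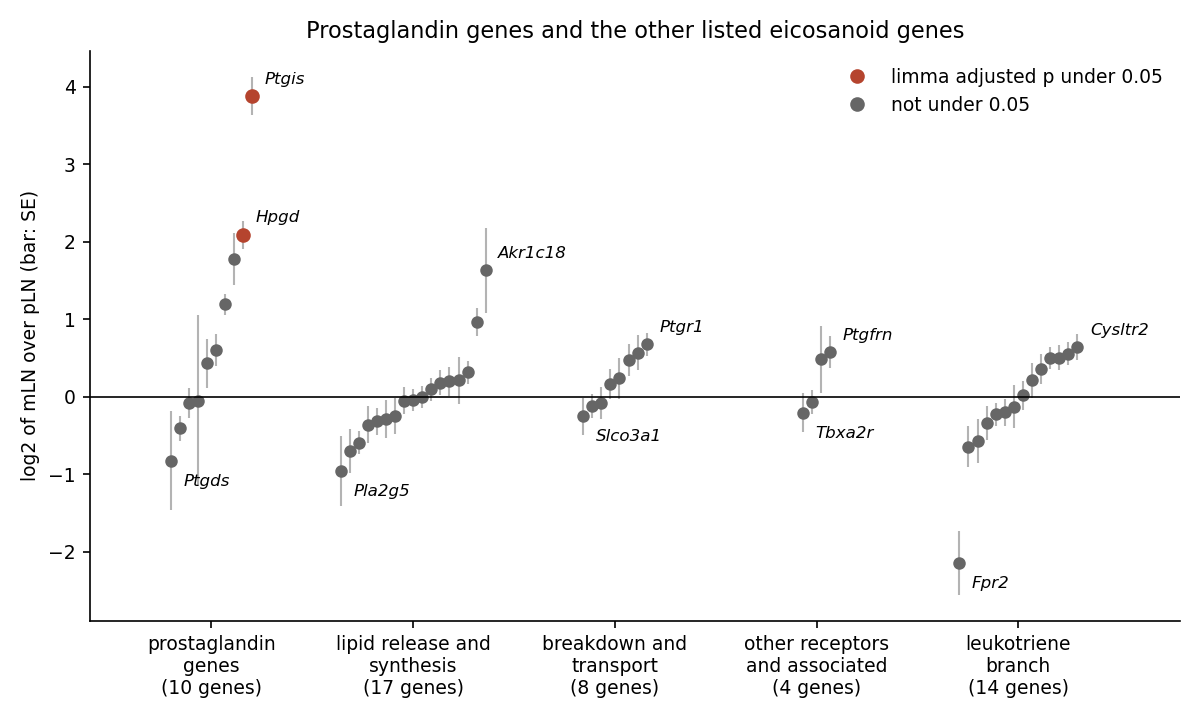
log2 of mLN over pLN with its standard error for the 10 prostaglandin genes and 43 other tested eicosanoid genes, 1 point per gene, sorted within each list, red where the limma adjusted p is under 0.05. The called genes, Ptgis and Hpgd, both belong to the first list, and the largest difference outside it is that of Fpr2 at -2.14.

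Among the 16905 other genes with a current symbol, those whose profile over the 4 arrays, centred on its own mean, lay nearest to that of Ptgis were AI661453 (root mean square distance 0.062 in log2), Prph (0.137) and Hand1. The distance of Hand1 rests on pLN readings that were not well above background and is not given. AI661453 was 15.2-fold and Prph 13.0-fold higher in mLN (limma adjusted p = 0.0155 and 0.0135), and Hand1 was at least 4.38-fold higher (adjusted p = 0.0159). Nearest to Hpgd were Meis1 (distance 0.104), 4.26-fold higher (limma adjusted p = 0.0197), Aox3 (0.128), 4.51-fold higher (0.0615), and Ampd1, whose pLN readings were likewise not well above background and which was at least 1.85-fold higher (0.0256). These genes were chosen for their likeness, so fold changes and adjusted p-values near those of the member follow from the choice. The adjusted p-values of Hand1 and Ampd1 also rest on their dim pLN readings.

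Some markers of cell types that the samples could hold moved with the node beside the higher Ptgis and Hpgd signals, and others of the same lists did not. The marker lists were chosen with earlier results of these data known. Of 9 mesothelial markers, 7 passed the threshold, all of them higher in mLN, against 0.776% of all genes. The summed signals of the 9 were 64378 and 49644 in mLN against 25237 and 25958 in pLN. The markers not called were Krt19 and Gpm6a. Krt19 had 10588 and 7209 in mLN against 3364 and 4851 in pLN (log2 fold change 1.11 ± 0.29, SE, limma adjusted p = 0.205). Gpm6a had 23381 and 19349 in mLN against 21769 and 21047 in pLN. The defining marker Upk3b had 9277 and 8273 in mLN against 10.6 and 11.7 in pLN, and Wt1 and Bnc1 were not well above background in pLN. Of 6 pancreatic acinar markers, 1 was called higher (Amy2a5) and all 6 were higher in both experiments, with sums of 590205 and 198523 in mLN against 11370 and 1139 in pLN. Amy2a5 entered through mLN alone, as its pLN readings were not well above background, and was at least 53.2-fold higher in mLN. Of 8 surface and glandular epithelial markers, 3 were called lower in mLN (Csn3, Wfdc2 and Esrp1), against 0.276% of all genes. The sums of the 8 were 1067 and 1003 in mLN against 6001 and 13709 in pLN. Esrp1 entered through pLN alone and was at least 3.21-fold lower in mLN. In both experiments 6 of the 8 were lower in mLN and Krt14 was higher. Of 5 melanocyte markers tested, 1 was called lower (Mlana, log2 fold change -4.56). Dct (-0.66), Slc45a2 (-0.45), Tyr (-0.07) and Pmel (0.22) were not called.

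No gene was called among 9 fibroblastic reticular (median log2 fold change 0.09), 9 blood endothelial (-0.46), 6 lymphatic endothelial (-0.69), 7 smooth muscle and pericyte (0.22), 10 leukocyte (0.18), 7 mast cell (-0.35), 4 adipocyte (-0.20), 4 Schwann cell (-0.06) and 4 erythroid markers (-1.07). At an unadjusted p under 0.05 (limma) these lists held 1, 4, 3, 3, 1, 2, 1, 0 and 2 genes, in the same order. Those higher in mLN numbered 1, 1, 2, 2, 1, 0, 1, 0 and 0. Over all genes the share under 0.05 was 14.7%, and the share called was 1.05%. The part of the mesothelial, acinar and epithelial cells in the prostaglandin gene values was not tested. The scaled signals of Ptgis and Hpgd in pLN, 150.02 to 179.6 and 2359 to 2856, were well above background on both arrays.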

How the data were processed

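The intensity values of the 4 one-dye arrays are background-subtracted signals that, per the file headers, the authors made with Agilent Feature Extraction 9.5.3.1 and deposited. Per the labels' protocols, 80 ng of RNA was amplified for each array, and the CD45-negative fraction had a mean purity of 97.4% (SD 2.0) in mLN and 97.5% (SD 2.2) in pLN. Other deposited columns, 0 or 1, flag signals well above background, saturated spots and outliers. Per the file headers all arrays lay on 1 slide scanned once, so no slide effect could be estimated. A deposited table of intensity values, used as an alternative, equalled the processed signals times 1 factor per array (0.862 and 0.867 for mLN, 0.865 and 0.890 for pLN), with the 75th percentile at 1500, a floor of 15 and medians of 172 and 161 for mLN and 169 and 167 for pLN. This was found by comparison, and the scale is linear.

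Control spots and outlier spots were left out, spots of a probe averaged, and each array's 75th percentile subtracted from log2 of the processed signal. Of 41174 probes, 19 had no usable spot on at least 1 array and were left out, and 31883 entered as well above background on both arrays of a node. The brightest entering probe stood for its gene, giving 21392 genes. Names came from RefSeq genes on GRCm38.p6 (24375 probes by accession, 6301 by symbol, 2426 by synonym), and 8072 probes kept the file's name. The nodes were compared with limma 3.58.1 in R 4.3.3 (lmFit, eBayes; prior 2.35 and total 4.35 degrees of freedom) and Benjamini-Hochberg adjustment over all genes at 0.05, without a block. The procedure was tested on simulated data. For a probe below background in 1 node, the bound sets the other node's mean against the lowest signal well above background.

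The titles number the experiments, so each number marks a shared experiment. Deviations of experiment 2 from experiment 1 correlated between the nodes across genes (r = 0.246), and a fit with the experiment as a block was an alternative. Others were median and quantile scaling, normexp background (offset 50), filters on dim probes, the treatment of several probes, the value table, an intensity trend and leaving out each array. The 10 genes and all lists were chosen with earlier results of these data known. Named were all members, in each pathway list the 3 genes with the largest absolute fold change, and for each called member the 3 genes of nearest profile. Slco2a1, Hpgds, Ptgdr, Fosb, Atf3 and the markers were named after their values were seen. The sequence of 1 probe is not reported here.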

Additional observations from a re-analysis of the deposited data

How the results depend on the processing

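The number of genes called, 225 as reported, was 354 with array medians as the scale, 441 with an intensity trend in the variance, 44 without the filter on dim probes, 0 with normexp background correction (limma, 569 at an unadjusted p under 0.05) and 0 to 190 with 1 array left out. The number of members called, 2 as reported, was 0 without the filter and 0 with normexp (4 at an unadjusted p under 0.05 in each), and 0 to 1 with 1 array left out. With the experiment as a block, 333 genes and 3 members were called, Ptger3 being added, and 1 of the other eicosanoid genes, Akr1c18, where the fit without the block had 0 (10 at an unadjusted p under 0.05, limma). The block changed no other call among these genes. A fit without 1 array leaves a lone sample in its node, which is assumed to vary like the others.

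Of 140 member values over 14 alternatives, 118 kept their direction and side of the threshold, 10 lost the call, 5 gained it and 7 turned sign. With normexp the log2 fold change of Ptger2 was 0.19 and that of Ptgfr 0.70. With 1 array left out, Ptgs2 ranged from -1.20 to 1.10 (1.10 without mLN array 1, 1.09 without pLN array 2), Ptgds from -1.74 to 0.094 (0.094 without mLN array 1) and Ptgfr from -0.25 to 0.083 (0.045 without mLN array 1, 0.083 without pLN array 2). The cause of the lower counts without the filter and with normexp was not tested. Signal over background limits probe 3 of Ptger3 and probe 2 of Ptger4.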
